A study of Mus musculus with 24 samples.

Results

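The 10 genes described here are immediate early genes of the AP-1 and Egr1 response: Fos, Fosb, Jun, Junb, Jund, Egr1, Atf3, Ier2, Dusp1 and Rhob. They were taken by name from a table of 43430 Ensembl mouse genes, after the gene identifiers had been matched to symbols, and all 10 were among the 13467 genes with enough counts to be tested. The table held RNA-seq counts of 24 libraries of alveolar macrophages that had been sorted by flow cytometry from C57BL/6J mouse lungs. It covers 6 groups with 4 libraries apiece. Young mice were 8 to 12 weeks old and old mice over 18 months, by the sample labels. Naive mice gave Siglec F-high macrophages only, the tissue-resident population. Mice studied 28 days after asbestos, a mineral fibre that scars the lung, gave both Siglec F-high macrophages and Siglec F-low macrophages, which the design text equates with monocyte-derived cells. No treatment or genetic change was common to all groups, and no naive Siglec F-low group was analysed here, so the Siglec F-low libraries were set against naive Siglec F-high libraries, a contrast in which asbestos and sort cannot be told apart. The labels do not say that the 4 libraries of a group came from separate mice, so p-values measure the spread between these libraries, which may be technical.

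Immediate early genes are transcribed within minutes of a stimulus without new protein synthesis, from promoters on which factors such as SRF, its ternary complex partners and CREB already sit. Growth factors, cytokines and stress reach them through MAP kinases. Fos and Jun family proteins pair through leucine zippers to form AP-1, which binds DNA and drives later genes. Egr1 is a zinc finger transcription factor, Atf3 a stress-induced factor that can pair with Jun proteins, and Ier2 a small nuclear protein. Dusp1 is a phosphatase that removes the activating phosphates of p38, JNK and ERK and so closes the loop, and Rhob is an endosomal small GTPase whose transcript is itself immediate early. Taking cells out of a tissue and sorting them is known to induce the same genes. All 24 libraries came from sorted cells, and no unsorted tissue was analysed here, so RNA present in the lung and RNA made during isolation cannot be told apart. In bulk libraries, fewer cells expressing a gene and less RNA per cell cannot be told apart either.

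Of the 24 libraries, 22 held 13423080 to 18124526 counts and 17069 to 18820 genes with at least 1 count. Replicate 3 of the young asbestos Siglec F-high group had 12528 genes with a count. Replicate 3 of the old asbestos Siglec F-high group held 3894699 counts, 35.6% of them on Gm42418, a gene model that overlaps ribosomal RNA, against at most 0.357% in the 22. Results are therefore given from all 24 libraries and again from the 22, with expression as counts scaled to a common depth (CPM) on TMM-scaled library sizes of the 24. Siglecf, which encodes the sort marker, was between 236 and 294 CPM in young and between 148 and 221 CPM in old Siglec F-low libraries, below all 16 Siglec F-high libraries, the lowest of which had 312 CPM. Summed over 16 markers of resident alveolar macrophages, the level was at least 20183 CPM in every library and at least 42310 CPM in the Siglec F-low groups, where Chil3 alone had a mean of 36739 CPM in young and 53837 CPM in old mice. The markers did not move as 1: with 24 libraries Chil3 and Fabp5 were called higher in Siglec F-low than in Siglec F-high libraries at both ages, while 5 of the 16 were called lower in young mice (Siglecf, Il18, Ear1, Krt79 and Krt19) and 3 in old mice (Siglecf, Il18 and Ear1). With 22 libraries 5 were higher and 4 lower in young and 3 higher and 6 lower in old mice. Of all genes, 4.99% were called in young and 4.3% in old mice with 24 libraries, and 12% and 11.6% with 22. Of the 8 neutrophil markers, Ly6g was at 0 in all groups but old asbestos Siglec F-low, while the 8 together had 57.4 to 108 CPM in the 22 libraries. The summed 4 eosinophil and 5 fibroblast markers stayed at or under 5.71 and 11.7 CPM in any library.

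The genes are compact. By the GENCODE annotation of GRCm38 (mm10), 5 of the 10, namely Jun, Junb, Jund, Ier2 and Rhob, had a longest coding transcript with 1 exon, which held for 2.37% of 12072 coding genes tested. The median gene span was 3.81 kb for the 10 and 23.5 kb for all, although Atf3 (47744 bases on chromosome 1) and Dusp1 (56539 bases on chromosome 17) are annotated with long alternative forms. The pentamer AUUUA, a sequence found in short-lived transcripts, occurred at a median of 2.71 per kb of 3′ UTR in the 10 genes and 1.27 per kb in all coding genes. The longer form UAUUUAU was present in 6 of 10 against 29.4% of all.

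Promoters of 5 genes are printed because these genes behaved differently in the libraries: Jun and Rhob were lower after asbestos, Fos and Dusp1 varied together between replicates, and Junb was not lower. Each line holds the 250 bases before the transcription start, 5′ to 3′ on the gene's own strand, from the RefSeq promoter table on GRCm38.p6, which matched 8 of the 10 genes. The positions are chr4:95052223-95052472, minus strand for Jun, chr12:8500010-8500259, minus strand for Rhob, chr12:85473640-85473889, plus strand for Fos, chr8:84978749-84978998, minus strand for Junb and chr17:26508473-26508722, minus strand for Dusp1. Capitals mark the cAMP response element TGACGTCA, its core TGACG in the direction of the gene, the TATA motif TATAAA, the CCAAT box on either strand (ATTGG when reversed), and in Jun the variant TGACATCA, which was added after the Jun sequence had been seen.
Jun: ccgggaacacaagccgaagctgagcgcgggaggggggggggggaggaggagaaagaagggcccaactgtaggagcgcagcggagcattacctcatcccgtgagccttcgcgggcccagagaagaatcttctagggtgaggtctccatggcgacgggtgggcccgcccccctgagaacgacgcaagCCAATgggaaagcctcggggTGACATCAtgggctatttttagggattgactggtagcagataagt
Rhob: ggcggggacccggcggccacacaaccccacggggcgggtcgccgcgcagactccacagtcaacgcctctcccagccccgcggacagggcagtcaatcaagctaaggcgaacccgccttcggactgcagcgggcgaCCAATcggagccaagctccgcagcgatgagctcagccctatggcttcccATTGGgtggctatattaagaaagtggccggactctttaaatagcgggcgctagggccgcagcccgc
Fos: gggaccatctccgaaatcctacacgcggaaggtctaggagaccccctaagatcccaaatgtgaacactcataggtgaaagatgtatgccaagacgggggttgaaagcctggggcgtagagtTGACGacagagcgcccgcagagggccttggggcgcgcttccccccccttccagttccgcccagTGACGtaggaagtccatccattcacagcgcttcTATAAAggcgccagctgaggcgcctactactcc
Junb: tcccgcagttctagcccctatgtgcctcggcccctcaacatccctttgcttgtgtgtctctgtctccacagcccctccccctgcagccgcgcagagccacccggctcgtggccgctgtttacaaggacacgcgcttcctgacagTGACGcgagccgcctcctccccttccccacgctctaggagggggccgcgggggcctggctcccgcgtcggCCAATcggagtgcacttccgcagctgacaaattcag
Dusp1: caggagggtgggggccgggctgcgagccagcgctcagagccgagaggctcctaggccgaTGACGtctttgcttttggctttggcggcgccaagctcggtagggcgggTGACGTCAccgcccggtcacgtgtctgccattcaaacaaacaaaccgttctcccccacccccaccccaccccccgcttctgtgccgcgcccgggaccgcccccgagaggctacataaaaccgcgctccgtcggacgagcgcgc

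Over both strands, the core TGACG was found in 5 of the 8 promoters (Fos, Fosb, Junb, Atf3 and Dusp1) and in 17.8% of all 32851 promoters searched over the same 250 bases. The full TGACGTCA, which contains the core, was found in Dusp1 alone of the 8 and in 1.55% of all. TATAAA was found in Fos and in 12.4% of all, and CCAAT in Jun, Junb and Rhob and in 33.8% of all. TGACATCA was found in Jun alone of the 8 and in 2.93% of all. The exact AP-1 sequence TGACTCA (4.46% of all) and the CArG box bound by SRF (1.47% of all) were in none of the 8 windows. The search could not find sites farther upstream than 250 bases, nor any of Egr1 and Ier2, which had no entry. Of the EGR motifs, GCGTGGGCG (0.536% of all) was in none and GCGGGGGCG (2.57% of all) in Fosb. These are matches of letters within the windows only. The CCAAT box of Jun, Rhob and Junb, in 3 of 8 promoters, was near the 33.8% of all. The TGACG core was in Junb and not in Jun or Rhob. Whether any motif bears on expression after asbestos was not tested.

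All 10 genes were well expressed in every library. Together they took 0.508% to 0.987% of all counts in the 22 libraries, and Fos ranked between 20 and 59 among all genes by count. On a per-length scale (mean CPM per kb of exon over 24 libraries), Fos was highest at 786, followed by Junb at 497, Dusp1 at 262, Jund at 231 and Fosb at 200.3. Jun (133), Rhob (131) and Ier2 (127) followed, with group means from 97.8 to 207, 89.5 to 198 and 89.0 to 169 that overlapped almost entirely. Atf3 was at 104, and Egr1 was lowest at 32.5. In each of the 6 groups Fos had the highest mean per kb, Junb the next and Egr1 the lowest, but the order of the other 7 varied between groups. Jund, at 250.3, was above Dusp1, at 225, in young asbestos Siglec F-high libraries with all 24. With the 22 libraries Jund, at 187, was below Dusp1, at 222, there. Fosb, at 239, was above Dusp1, at 236, and Jund, at 185, in old asbestos Siglec F-high libraries, and Atf3 was above Jun, Rhob and Ier2 in both asbestos groups of old mice. The exon length that scales each of the 10 genes is a union over its annotated transcripts. Where there are several, as for Atf3 and Dusp1, they need not all be present. For Fosb this length was 6243 bases of a span of 7356. The order per kb is approximate for that reason.

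The first question was how the genes of Siglec F-high macrophages differed between naive mice and mice 28 days after asbestos. Jun, Egr1 and Rhob fell at both ages, and none of the 10 was called higher. With 24 libraries 3 of 10 members were called at an edgeR adjusted p under 0.05 in young mice, where 1.9% of all genes were called and 0.475% were called lower. In old mice the same 3 members were called, where 0.78% of all genes were called and 0.0668% called lower, which is 9 genes in all. With 22 libraries Jund and Ier2 joined them at both ages, giving 5 of 10 in young mice (5.06% of all genes called, 1.58% lower) and 5 of 10 in old mice (4.12% called, 0.969% lower). The median log2 fold change of the 10 was -0.57 in young and -0.38 in old mice with 24 libraries, against -0.01 and 0.01 over all genes. The comparisons of young and of old mice share no library. When only the 8 libraries of a comparison entered the fit, the spread was no longer estimated over all groups, and edgeR called 0 of 10 in young mice (Jun adjusted p = 0.145, Egr1 0.300, Rhob 0.103) and 2 of 10 in old mice (Rhob 0.00238 and Ier2 0.0462, with Jun at 0.0565 and Egr1 at 0.115). DESeq2 called 5 and 3 with all 24 libraries, and limma voom with quality weights 7 and 5. The shares of all genes called in these 8-library, DESeq2 and voom fits are not given here. Their counts of members thus have no background beside them.

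**Figure D1:**
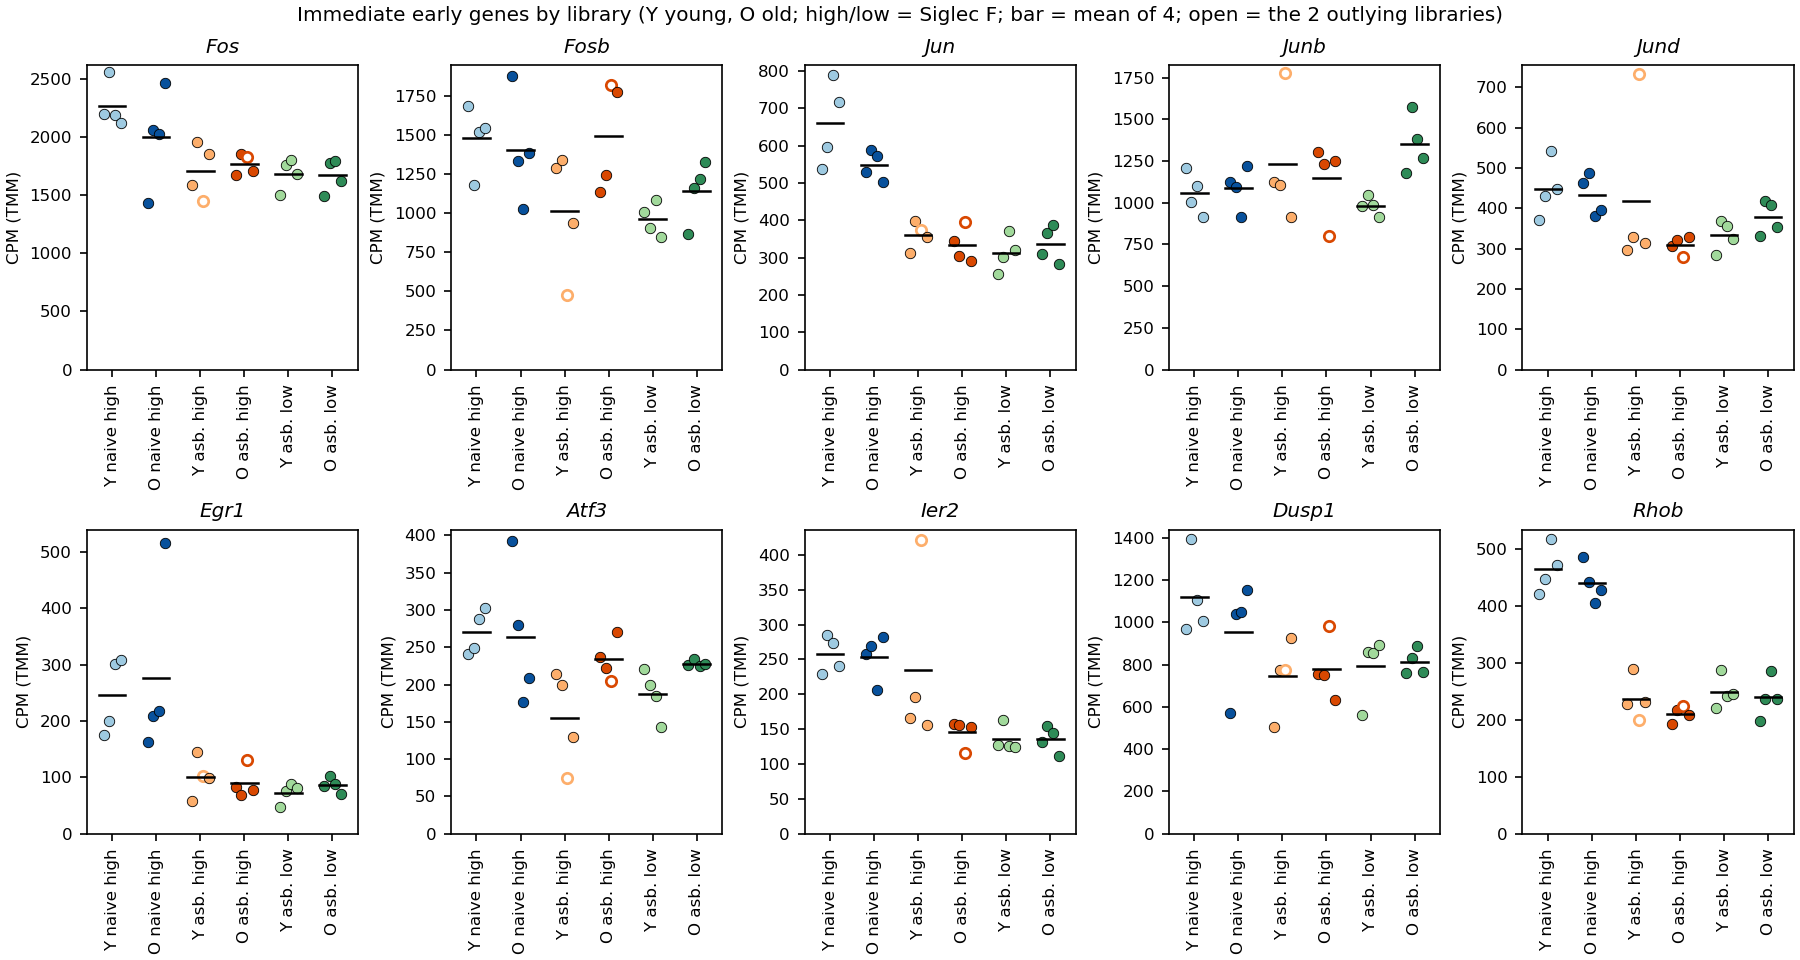
CPM of each of the 10 genes (y axes from 0, own scale per gene) in each library of the 6 groups (x axis), with the group mean of 4 as a bar and the 2 outlying libraries as open circles. The 8 naive libraries of Rhob sit between 404 and 518 CPM, above all 16 asbestos libraries, while Junb shows no such step.

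Among the Jun proteins, the dimer partners that bind DNA with Fos, Jun itself showed the step most plainly. Jun was at 537, 597, 789 and 718 CPM in the 4 young naive libraries and at 311, 398, 373 and 356 CPM in young asbestos Siglec F-high. In old mice it was at 530.2, 588, 573 and 502 CPM in naive and 345, 304, 395 and 292 CPM in asbestos Siglec F-high libraries. Every asbestos library lay below every naive library of either age. The log2 fold change was -0.88 ± 0.14 (SE, adjusted p = 0.00124) in young and -0.72 ± 0.14 (SE, adjusted p = 0.0168) in old mice with 24 libraries, and -0.90 (adjusted p = 0.0003) and -0.80 (adjusted p = 0.00105) with 22. The call in old mice missed the threshold without old naive replicate 2 (adjusted p = 0.0657), old naive replicate 3 (0.0604) or old asbestos Siglec F-high replicate 4 (0.0651).

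Jund, the Jun protein usually present in resting cells, was at 369.6, 431, 542 and 448 CPM in young naive and 296, 328, 732 and 314 CPM in young asbestos Siglec F-high libraries. It was at 462, 488, 380.2 and 397 CPM in old naive and 306, 322, 279 and 328 CPM in old asbestos Siglec F-high libraries. All asbestos libraries but young replicate 3, at 732 CPM, lay below the naive libraries of their age. Its log2 fold change was -0.10 ± 0.21 (SE, adjusted p = 0.803) in young mice with 24 libraries and -0.52 ± 0.12 (SE, adjusted p = 0.00936) with 22, and in old mice -0.48 ± 0.21 (SE, adjusted p = 0.495) and -0.44 ± 0.12 (SE, adjusted p = 0.0336). Leaving out young replicate 3 alone gave adjusted p-values of 0.0200 in young and 0.0206 in old mice, in a fit where all groups share 1 estimate of the spread.

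Junb, an AP-1 subunit that opposes Jun at some genes, did not follow them. It was at 1208, 1003, 1102 and 916 CPM in young naive, 1125, 1105, 1776 and 915 CPM in young asbestos, 1122, 1092, 916 and 1218 CPM in old naive and 1307, 1235, 804 and 1251 CPM in old asbestos Siglec F-high libraries. The values of the groups overlapped, with the 2 outlying libraries at opposite ends. The log2 fold change was 0.22 ± 0.18 (SE, adjusted p = 0.498) in young and 0.08 ± 0.18 (SE, adjusted p = 0.999) in old mice, and the young value changed sign to -0.02 (adjusted p = 0.962) with 22 libraries.

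Fos, the AP-1 partner with the highest expression, was at 2199, 2561, 2193 and 2117 CPM in young naive and 1588, 1953, 1449.9 and 1851 CPM in young asbestos Siglec F-high libraries, without overlap. In old mice it was at 1435, 2059, 2029.7 and 2462 CPM in naive and 1675, 1855, 1832 and 1706 CPM in asbestos libraries, which overlapped through old naive replicate 1 alone. The change did not pass the test at either age, with -0.41 ± 0.14 (SE, adjusted p = 0.136) in young and -0.18 ± 0.14 (SE, adjusted p = 0.873) in old mice. Fosb, which shares the Fos zipper, was at 1684, 1181, 1519 and 1543 CPM in young naive and 1290.4, 1338, 479 and 940.0 CPM in young asbestos libraries, with values of 1877, 1336, 1029 and 1386 CPM and 1138, 1242, 1824 and 1774 CPM in the old pair of groups. Its log2 fold change of -0.55 ± 0.25 (SE, adjusted p = 0.223) in young and 0.09 ± 0.25 (SE, adjusted p = 0.999) in old mice did not pass either, and the old value became -0.02 (adjusted p = 0.97) with 22 libraries.

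Atf3, the stress-induced factor, resembled Fos in young mice. It was at 241, 249, 288 and 303 CPM in young naive and 215, 199.8, 75.3 and 130.0 CPM in young asbestos libraries, again without overlap. Old naive libraries had 392, 279, 176 and 209 CPM and old asbestos libraries 237, 222, 205 and 270.5 CPM, which overlapped. The young log2 fold change of -0.80 ± 0.25 (SE, adjusted p = 0.102) missed the threshold with 24 and, at -0.58 (adjusted p = 0.0983), with 22 libraries. Among the fits that left out 1 library it passed in 1, without replicate 2 of the young asbestos Siglec F-high group, at -0.95 (adjusted p = 0.0452).

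Egr1 had the largest fold change of the 10 at both ages. It was at 175, 199, 302 and 308 CPM in young naive and 58.0, 145, 102 and 99.2 CPM in young asbestos Siglec F-high libraries, and at 163, 209.6, 218 and 517 CPM in old naive and 83.7, 69.7, 131 and 78.2 CPM in old asbestos libraries. No asbestos library reached the lowest naive library, although old naive replicate 4 was far above the other three. The log2 fold change was -1.28 ± 0.32 (SE, adjusted p = 0.0379) in young and -1.63 ± 0.33 (SE, adjusted p = 0.0172) in old mice with 24 libraries, and -1.29 (adjusted p = 0.0212) and -1.84 (adjusted p = 0.00206) with 22. The young call was lost without young naive replicate 2 (adjusted p = 0.0576), 3 (0.139) or 4 (0.139), young asbestos Siglec F-high replicate 1 (0.0719) or young asbestos Siglec F-low replicate 2 (0.0506). The old call was lost without old naive replicate 4, at a log2 fold change of -1.15 (adjusted p = 0.0605), or without old asbestos Siglec F-high replicate 4 (0.0621).

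Rhob gave the steadiest difference. It was at 422, 447, 518 and 473 CPM in young naive and 228, 289, 199 and 232 CPM in young asbestos Siglec F-high libraries. It was at 486, 441, 404 and 428 CPM in old naive and 192, 217, 224 and 209 CPM in old asbestos Siglec F-high libraries. The highest asbestos library, at 289 CPM, was well under the lowest naive library, at 404 CPM. The log2 fold change was -0.97 ± 0.12 (SE, adjusted p = 9.71e-05) in young and -1.07 ± 0.12 (SE, adjusted p = 3.82e-05) in old mice, and both calls held in each of the 24 fits that left out 1 library.

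Ier2 was at 229, 285, 274 and 240.0 CPM in young naive, 166, 196, 421 and 156 CPM in young asbestos, 258, 269, 206 and 282 CPM in old naive and 157, 156, 116 and 153 CPM in old asbestos Siglec F-high libraries. As with Jund, every asbestos library but young replicate 3, at 421 CPM, lay below the naive libraries of its age. The log2 fold change was -0.13 ± 0.22 (SE, adjusted p = 0.753) in young and -0.79 ± 0.23 (SE, adjusted p = 0.133) in old mice with 24 libraries. It was -0.58 ± 0.12 (SE, adjusted p = 0.00585) and -0.70 ± 0.12 (SE, adjusted p = 0.00125) with 22, and leaving out young replicate 3 alone gave -0.57 (adjusted p = 0.0190) and -0.79 (adjusted p = 0.000974). Dusp1, the MAP kinase phosphatase, was at 969.8, 1394, 1105 and 1006 CPM in young naive and 505, 772, 774 and 925 CPM in young asbestos libraries, without overlap. Old naive libraries had 571, 1039.8, 1048 and 1151 CPM and old asbestos libraries 757, 753, 982 and 634 CPM, with replicate 1 of the naive group lowest of all 8. Its changes of -0.59 ± 0.21 (SE, adjusted p = 0.142) and -0.29 ± 0.21 (SE, adjusted p = 0.842) did not pass the test.

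**Figure D2:**
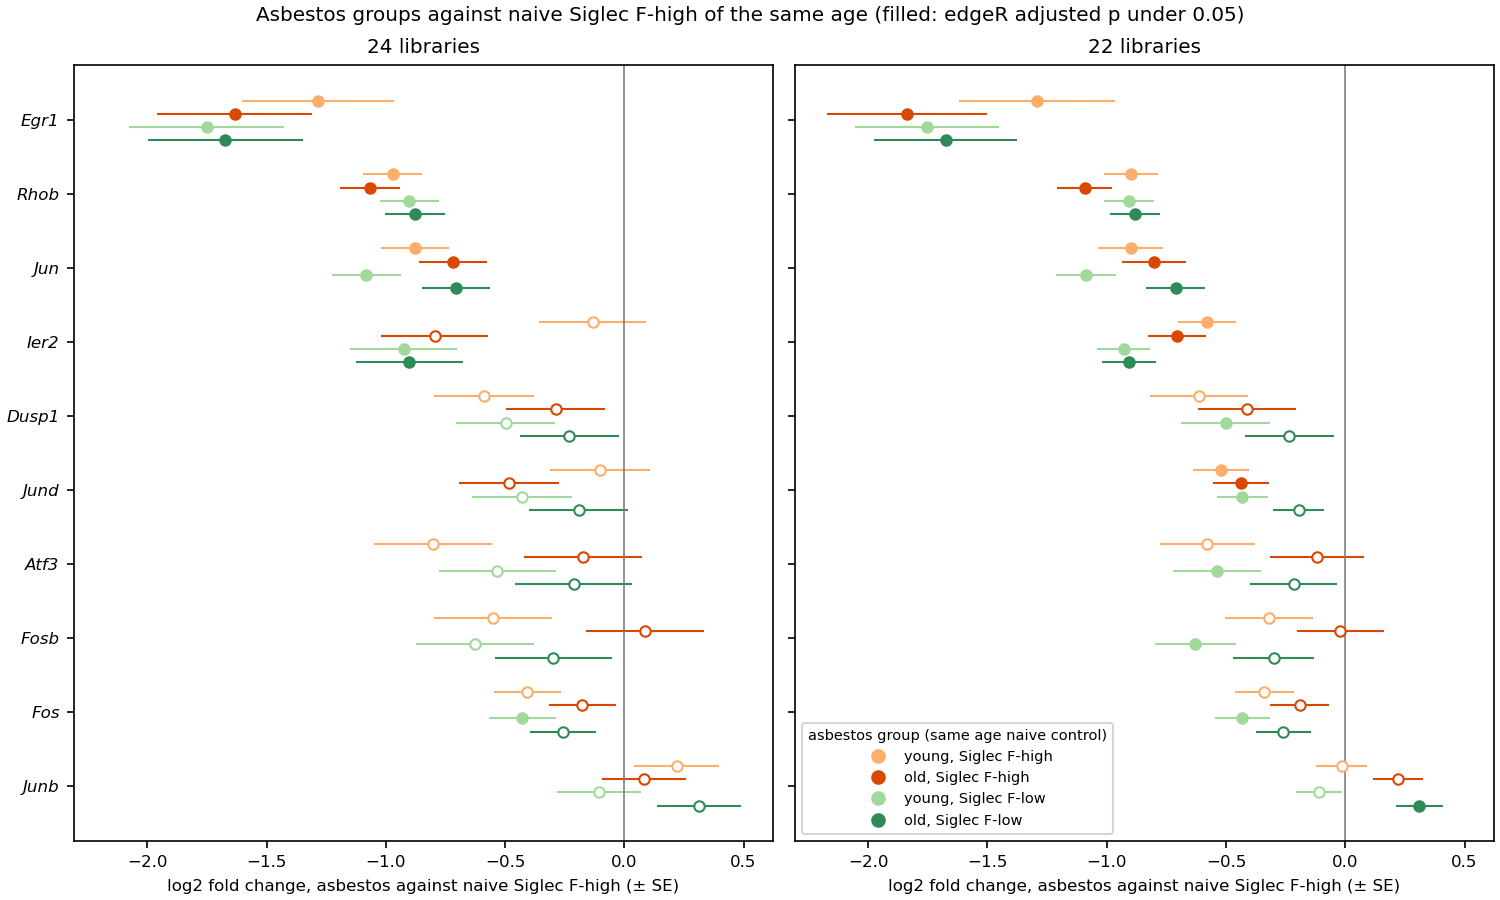
Log2 fold change (x axis, ± SE) of each gene (y axis) in the 4 asbestos groups against naive Siglec F-high libraries of the same age, with 24 libraries on the left and 22 on the right, and filled points where the edgeR adjusted p was under 0.05. Egr1, Rhob and Jun are filled in all 4 comparisons of both panels, Ier2 in all 4 with 22 libraries, and Junb lies between -0.11 and 0.31.

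Counted without a model, 6 of 10 members in young and 5 of 10 in old mice had every asbestos Siglec F-high library below every naive library, as did 4.78% and 3.84% of all genes. With 22 libraries these were 8 of 10 (7.34% of all genes) and 5 of 10 (6.97%), and Junb had every old asbestos library above every old naive library (9.49% of all genes). Whether the change differed with age was tested as an interaction. With edgeR, 0 of 10 members were called among 13467 genes of which 0% were called, 1 member had an unadjusted p under 0.05, and neither limma voom nor DESeq2 called a member. The interaction of Egr1 was -0.35 ± 0.45 (SE, adjusted p = 0.787) and that of Rhob -0.10 ± 0.17 (SE, adjusted p = 0.849). With 22 libraries 0 members were called (0.0147% of all genes) and 0 had an unadjusted p under 0.05.

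Siglec F-low macrophages after asbestos were next set against naive Siglec F-high macrophages of the same age, the same naive libraries as in the previous comparison. In young mice 5 of 10 members were lower with 24 libraries (12.4% of all genes called, 4.43% lower) and 9 of 10 with 22 (34.7% called, 16.4% lower). In old mice 4 of 10 were lower with 24 libraries (10.5% of all genes called, 3.9% lower). With 22 libraries 4 were lower and Junb was higher (30.7% called, 14.8% lower). None of these groups holds an outlying library, so the fits differ through steps that all groups share. These are the estimate of the spread, the library scaling, the genes tested and the adjustment over them. Since so many genes differ between these populations, the shares of members are nearer to the background here than in the Siglec F-high comparison.

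Jun was at 255, 302, 371 and 319.5 CPM in young and 309, 366, 387 and 282 CPM in old Siglec F-low libraries, -1.08 ± 0.14 (SE, adjusted p = 1.05e-05) and -0.71 ± 0.14 (SE, adjusted p = 0.00148) on the log2 scale against naive. Egr1 was at 47.3, 76.3, 87.8 and 80.8 CPM in young and 84.5, 103, 89.1 and 70.4 CPM in old Siglec F-low libraries, with changes of -1.75 ± 0.32 (SE, adjusted p = 0.000548) and -1.67 ± 0.32 (SE, adjusted p = 0.000978). For both genes every Siglec F-low library lay below all naive libraries of either age. Rhob was at 221, 287, 241 and 246 CPM and 198, 238, 285 and 237 CPM, with changes of -0.90 ± 0.12 (SE, adjusted p = 1.77e-05) and -0.88 ± 0.12 (SE, adjusted p = 2.68e-05). Ier2 was at 128, 164, 125 and 125 CPM and 132, 154, 145 and 112 CPM, with changes of -0.93 ± 0.22 (SE, adjusted p = 0.00675) and -0.90 ± 0.22 (SE, adjusted p = 0.00907). These 4 genes were thus lower in Siglec F-low macrophages of both ages, with all 24 libraries and with 22.

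Of the AP-1 partners, Fos was at 1497, 1762, 1799.8 and 1684 CPM in young Siglec F-low libraries, all below the 4 young naive libraries, with a change of -0.43 ± 0.14 (SE, adjusted p = 0.0484). That call rested close to the threshold. It held without old naive replicate 1 or 4, young asbestos Siglec F-high replicate 3 or old asbestos Siglec F-high replicate 3, and was lost without each of the other 20 libraries, with log2 fold changes from -0.47 to -0.36 and adjusted p-values up to 0.174. In old Siglec F-low libraries Fos was at 1489.7, 1779, 1792 and 1622 CPM, with a change of -0.26 ± 0.14 (SE, adjusted p = 0.313). Fosb at -0.63 (adjusted p = 0.00589), Jund at -0.43 (adjusted p = 0.00301), Atf3 at -0.54 (adjusted p = 0.0254) and Dusp1 at -0.50 (adjusted p = 0.042) passed in young mice with the 22 libraries, and did not with 24, where their adjusted p-values were 0.113, 0.219, 0.188 and 0.138. With replicate 3 of the young asbestos Siglec F-high group alone left out, 8 members passed. In old mice Fosb, Jund, Atf3 and Dusp1 did not pass, with log2 fold changes between -0.30 and -0.19 with 24 libraries. Junb went the other way there, at 1179, 1574, 1383 and 1266 CPM in old Siglec F-low libraries, with 0.31 ± 0.18 (SE, adjusted p = 0.332) from 24 libraries and 0.31 ± 0.10 (SE, adjusted p = 0.0191) from 22. Its 4 values overlapped those of the old naive group in 1 library only, old Siglec F-low replicate 1.

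Siglec F-low and Siglec F-high macrophages after asbestos were then compared with each other. In young mice 1 of 10 members, Ier2, was called lower in Siglec F-low than in Siglec F-high libraries with 24 libraries, where 4.99% of all genes were called. Its change was -0.79 ± 0.22 (SE, adjusted p = 0.0414), and -0.35 ± 0.12 (SE, adjusted p = 0.0602) with 22 libraries, where 0 of 10 members were called (12% of all genes). Without the high Siglec F-high replicate 3 alone the change was -0.35 (adjusted p = 0.131). The call held without Siglec F-high replicate 1, 2 or 4 of the young or 3 of the old asbestos mice, and was lost without each of the other 20 libraries. In old mice 0 of 10 members were called by edgeR (4.3% of all genes), and 0 had an unadjusted p under 0.05, with 0 by limma voom and 0 by DESeq2. With 22 libraries 0 were called there (11.6% of all genes), and 1 had an unadjusted p under 0.05. Log2 differences lay between -0.38 (Fosb) and 0.29 (Jund) in old mice with 24 libraries.

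The next comparison was between old and young macrophages of the same condition. Among naive Siglec F-high libraries edgeR called 0 of 10 (2.03% of all genes) and none had an unadjusted p under 0.05, while limma voom called 1, Jun, at -0.39 (adjusted p = 0.0267), and DESeq2 0. With 22 libraries edgeR called 0 (8.03% of all genes) and 1 had an unadjusted p under 0.05. The edgeR differences with 24 libraries ranged from -0.27 for Jun to 0.17 for Egr1. Among asbestos Siglec F-high libraries edgeR called 0 of 10 (4.76% of all genes), with 3 at an unadjusted p under 0.05, 1 call by limma voom (Rhob, -0.33, adjusted p = 0.0359) and 1 by DESeq2 (Ier2, -0.69, adjusted p = 0.0409). Leaving out young asbestos Siglec F-high replicate 1 gave 2 calls there, Atf3 at 0.79 (adjusted p = 0.0498) and Ier2 at -0.81 (adjusted p = 0.0325), and leaving out replicate 4 gave 1, Ier2 at -0.83 (adjusted p = 0.0276). With the 22 libraries 0 were called (7.32% of all genes), 2 had an unadjusted p under 0.05, and Ier2 was at -0.14 (adjusted p = 0.613).

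Among Siglec F-low libraries Junb, the AP-1 subunit that had not fallen after asbestos, was the member with a call between ages. It was at 981, 1046, 986 and 917 CPM in young and 1179, 1574, 1383 and 1266 CPM in old Siglec F-low libraries, every old library above every young one. With 24 libraries the difference of 0.46 ± 0.18 (SE, adjusted p = 0.356) was not called and edgeR called 0 of 10 (1.29% of all genes), with 1 at an unadjusted p under 0.05 and 0 calls by DESeq2. With 22 libraries it was called at 0.46 ± 0.10 (SE, adjusted p = 0.00428), 1 of 10 members against 7.21% of all genes, and limma voom called it with 24. Atf3 was at 220.5, 199.6, 185 and 143 CPM in young and 226, 234, 224 and 227 CPM in old Siglec F-low libraries, also without overlap, with an uncalled difference of 0.28 (adjusted p = 1). These were 2 of 10 members without overlap upward, as were 6.33% of all genes (6.35% of those tested with 22 libraries). The test of whether the sort difference depended on age called 0 of 10 members (0% of all genes), with 3 at an unadjusted p under 0.05 and 0 calls by limma voom or DESeq2, and with 22 libraries 0 were called (0.0147% of all genes) and 0 had an unadjusted p under 0.05. The largest of these interactions with 24 libraries was that of Ier2 at 0.68 ± 0.32 (SE, adjusted p = 0.761), and Junb was at 0.56 ± 0.25 (SE, adjusted p = 0.761).

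The replicates of a group also differ among themselves, which shows which members move together apart from the treatment. The deviation of log2 CPM from the group mean was compared for the 45 gene pairs over the 22 libraries, which share depth and composition within a library, with 100000 permutations within groups and adjustment over the 45. Of the 45 coefficients 35 were positive. By Pearson's r 4 pairs passed, all positive, and by Spearman's rho 7 passed, the same 4 and 3 more, of which 2 were negative. For Fos and Dusp1 the values were Pearson's r = 0.868 (permutation p = 0.00028, adjusted p = 0.0063), Spearman's rho = 0.747 (permutation p = 0.00213, adjusted p = 0.0426) and r = 0.814 without the 2 libraries farthest from the median of Fos. For Jund and Rhob they were Pearson's r = 0.755 (permutation p = 0.00014, adjusted p = 0.0063), Spearman's rho = 0.807 (permutation p = 4e-05, adjusted p = 0.0018) and r = 0.734 without the 2 libraries farthest from the median of Jund. Fos and the phosphatase Dusp1 were thus high or low in the same libraries, with old naive replicate 1 lowest for both.

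Fosb and Atf3 formed another pair, with Pearson's r = 0.690 (permutation p = 0.00225, adjusted p = 0.0323), Spearman's rho = 0.618 (permutation p = 0.00749, adjusted p = 0.0481) and r = 0.668 without the 2 libraries farthest from the median of Fosb. Jun and Jund gave Pearson's r = 0.717 (permutation p = 0.00287, adjusted p = 0.0323), Spearman's rho = 0.688 (permutation p = 0.00381, adjusted p = 0.0426) and r = 0.650 without the 2 libraries farthest from the median of Jun. Jun and Egr1, which passed by Spearman's rho, gave Pearson's r = 0.531 (permutation p = 0.0147, adjusted p = 0.104), Spearman's rho = 0.677 (permutation p = 0.00473, adjusted p = 0.0426) and r = 0.485 without the 2 libraries farthest from the median of Jun. The Fosb and Atf3 pair ran against Dusp1: for Atf3 and Dusp1 the values were Pearson's r = -0.744 (permutation p = 0.00638, adjusted p = 0.0574), Spearman's rho = -0.665 (permutation p = 0.00676, adjusted p = 0.0481) and r = -0.652 without the 2 libraries farthest from the median of Atf3. For Fosb and Dusp1 they were Pearson's r = -0.593 (permutation p = 0.0161, adjusted p = 0.104), Spearman's rho = -0.639 (permutation p = 0.00441, adjusted p = 0.0426) and r = -0.676 without the 2 libraries farthest from the median of Fosb. Fos and Fosb, close relatives in sequence and in known function, gave Pearson's r = -0.312 (permutation p = 0.317, adjusted p = 0.475), Spearman's rho = -0.196 (permutation p = 0.452, adjusted p = 0.636) and r = -0.100 without the 2 libraries farthest from the median of Fos. In the old naive group replicate 1 had the lowest Fos (1435 CPM) and Dusp1 (571 CPM) and the highest Fosb (1877 CPM) and Atf3 (392 CPM).

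Libraries numbered 1 stood low in other groups too. Fos was below its group mean in replicate 1 of all 6 groups, and Jun, Jund, Egr1, Dusp1 and Rhob each in 5 of 6. Shared deviations were not confined to that number. In replicate 2 Fos, Ier2 and Dusp1 were each below the group mean in 0 of 6 groups, and in replicate 4 Junb and Ier2 each in 5 of 6. Replicate 1 of young asbestos Siglec F-high macrophages had the lowest Fos (1588 CPM) and Dusp1 (505 CPM) and the highest Atf3 (215 CPM) of the 3 libraries kept there. Replicate 1 of young asbestos Siglec F-low macrophages likewise had the lowest Fos (1497 CPM) and Dusp1 (560.3 CPM) and the highest Atf3 (220.5 CPM) of its 4. The permutations within groups take no account of shared numbers, and of these only number 1 was left out below. Over the 16 libraries not numbered 1, a choice made after seeing the data, Pearson's r was 0.696 for Fos and Dusp1, 0.557 for Jund and Rhob, 0.767 for Fosb and Atf3, 0.628 for Jun and Jund, -0.565 for Atf3 and Dusp1 and -0.663 for Fosb and Dusp1. For Jun and Egr1 it was 0.199, so that coefficient rests on the libraries numbered 1. The labels do not say what the number stands for.

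**Figure D3:**
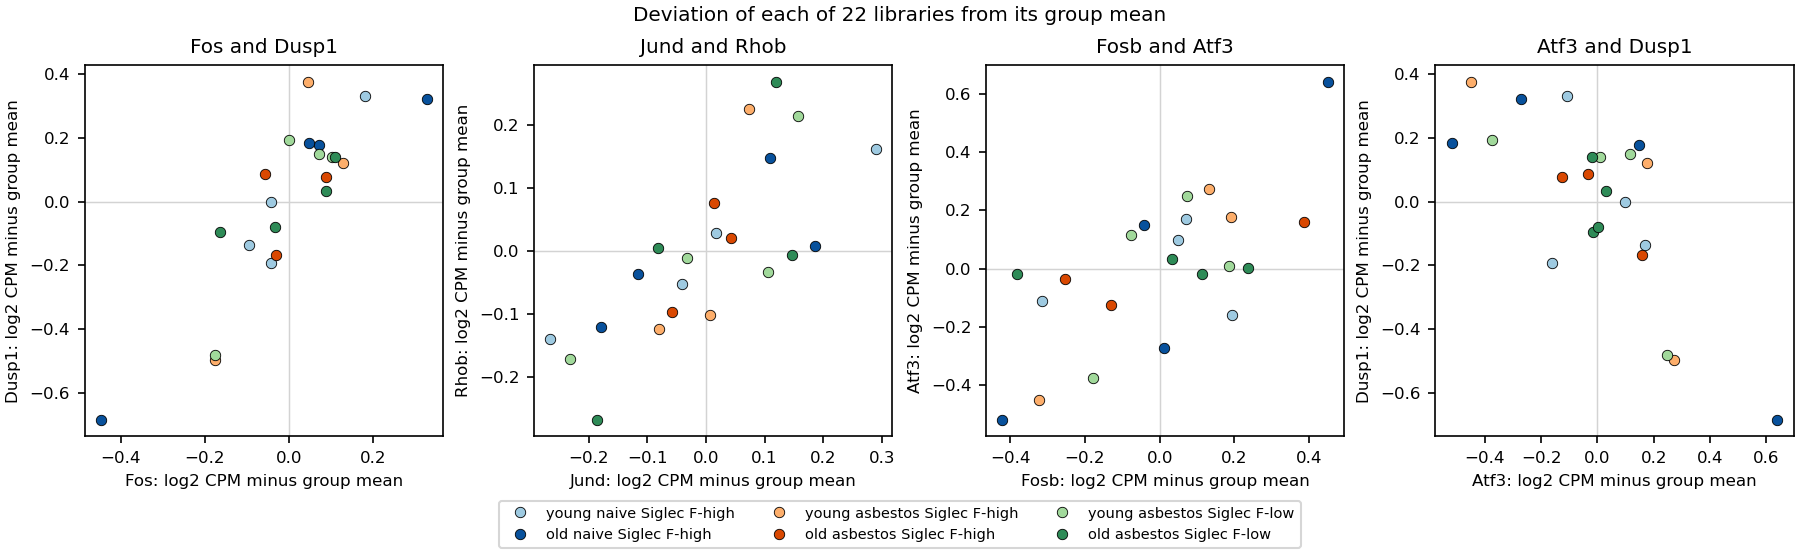
Deviation of log2 CPM from the group mean for 4 gene pairs (x and y axes) in the 22 libraries, coloured by group. Fos and Dusp1 (r = 0.868), Jund and Rhob (r = 0.755) and Fosb and Atf3 (r = 0.690) rise together, while Atf3 and Dusp1 (r = -0.744) run in opposite directions.

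The other genes of the pathway were followed in lists for the same comparisons. Of 4 tested genes of the EGR family and its corepressors, Nab2, which binds and restrains EGR proteins, fell in young Siglec F-high macrophages after asbestos with 22 libraries, at -0.46 (adjusted p = 0.0138). With 24 libraries edgeR called 0 of the 4, with 2 in young and 0 in old mice at an unadjusted p under 0.05, 3 and 0 calls by limma voom and 1 and 0 by DESeq2. Of all genes, 1.9% were called in young and 0.78% in old mice with 24 libraries, and 5.06% in young mice with 22. The list median was -0.49 in young mice with 22 libraries, against 0.00 over all genes and -0.58 for the 10 members.

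The 42 other immediate early genes were mixed. Over all genes, 0.475% fell after asbestos in young Siglec F-high macrophages with 24 libraries and 1.58% with 22. In young Siglec F-high macrophages 4 fell and 0 rose after asbestos with 24 libraries, and 10 fell with 22, led by the Kruppel-like factors Klf6 at -0.76 (adjusted p = 6.93e-05) and Klf2 at -0.99 (adjusted p = 0.000399) and by the helix-loop-helix inhibitor Id3 at -1.97 (adjusted p = 0.00201). In old mice 1 rose and 0 fell with 24 libraries (over all genes 0.713% and 0.0668%), while 2 rose and 4 fell with 22 (3.16% and 0.969%). There Klf2 fell at -1.07 (adjusted p = 0.000242) and Klf6 at -0.41 (adjusted p = 0.0201), whereas Plk2, a Polo-like kinase, rose at 1.35 (adjusted p = 0.000852). In Siglec F-low macrophages 4 rose and 8 fell in young and 5 rose and 3 fell in old mice with 24 libraries, and 6 rose and 22 fell in young and 7 rose and 8 fell in old mice with 22. Of all genes, 7.94% rose and 4.43% fell in young and 6.63% and 3.9% in old Siglec F-low macrophages with 24 libraries. With 22 libraries these shares were 18.3% and 16.4% in young and 15.9% and 14.8% in old mice. Btg2, an antiproliferative gene, was lower at both ages, at -0.86 (adjusted p = 2.99e-06) and -0.75 (adjusted p = 2e-05). Socs3, the inhibitor of cytokine receptor signalling, was higher, at 1.26 (adjusted p = 0.00013) and 2.17 (adjusted p = 1.84e-07).

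Among 9 other MAP kinase phosphatases, the relatives of Dusp1, 3 fell in Siglec F-low macrophages at each age with 24 libraries and 0 rose. Of all genes, 4.43% fell there in young and 3.9% in old mice. Dusp6, which acts on ERK, was at -1.03 (adjusted p = 1.28e-05) in young and -0.89 (adjusted p = 9.45e-05) in old mice, Dusp5 at -0.84 (adjusted p = 0.000708) and -0.84 (adjusted p = 0.00079), and Dusp16 at -1.21 (adjusted p = 0.00528) and -0.99 (adjusted p = 0.0247). In Siglec F-high macrophages after asbestos edgeR called 0 with 24 libraries, with 3 in young and 1 in old mice at an unadjusted p under 0.05, 4 and 0 calls by limma voom and 1 and 0 by DESeq2, and Dusp16 was lower in young mice with 22, at -0.70 (adjusted p = 0.0217). Of all genes, 1.9% were called in young and 0.78% in old Siglec F-high macrophages with 24 libraries, and 5.06% in young with 22. The list median lay below 0 in all 4 comparisons against naive, from -0.55 to -0.24 with 24 libraries.

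Upstream of the members, few genes were called. Of all genes, 1.9% were called in young and 0.78% in old Siglec F-high macrophages with 24 libraries. Counts of 0 in the lists below are near these shares and do not show that the lists were unchanged. Of 29 genes of the MAP kinase cascade edgeR called 0 at either age in Siglec F-high macrophages with 24 libraries, with 4 in young and 3 in old mice at an unadjusted p under 0.05, 1 and 1 calls by limma voom and 0 and 0 by DESeq2. With 22 libraries Map3k8, a kinase that feeds ERK, was lower in old mice, at -0.53 (adjusted p = 0.0273), where 4.12% of all genes were called. Of 13 genes for SRF, its ternary complex partners and CREB edgeR called 0 at either age, with 2 in young and 1 in old mice at an unadjusted p under 0.05, 3 and 0 calls by limma voom and 0 and 0 by DESeq2.

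Inflammatory genes gave no such decrease as a group. Of 24 NF-kB primary response genes edgeR called 0 at either age with 24 libraries, with 3 in young and 2 in old mice at an unadjusted p under 0.05, 2 and 2 calls by limma voom and 0 and 0 by DESeq2. Of all genes, 1.9% were called in young and 0.78% in old mice, so 0 of 24 is near these shares. The list medians were -0.01 and 0.11. With 22 libraries 5.06% of all genes were called in young and 4.12% in old mice. With 22 libraries Ccl2, a monocyte chemokine, fell in young mice at -1.36 (adjusted p = 0.00136) and the cytokine Il1b rose in old mice, at 1.27 (adjusted p = 0.0473).

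**Figure D4:**
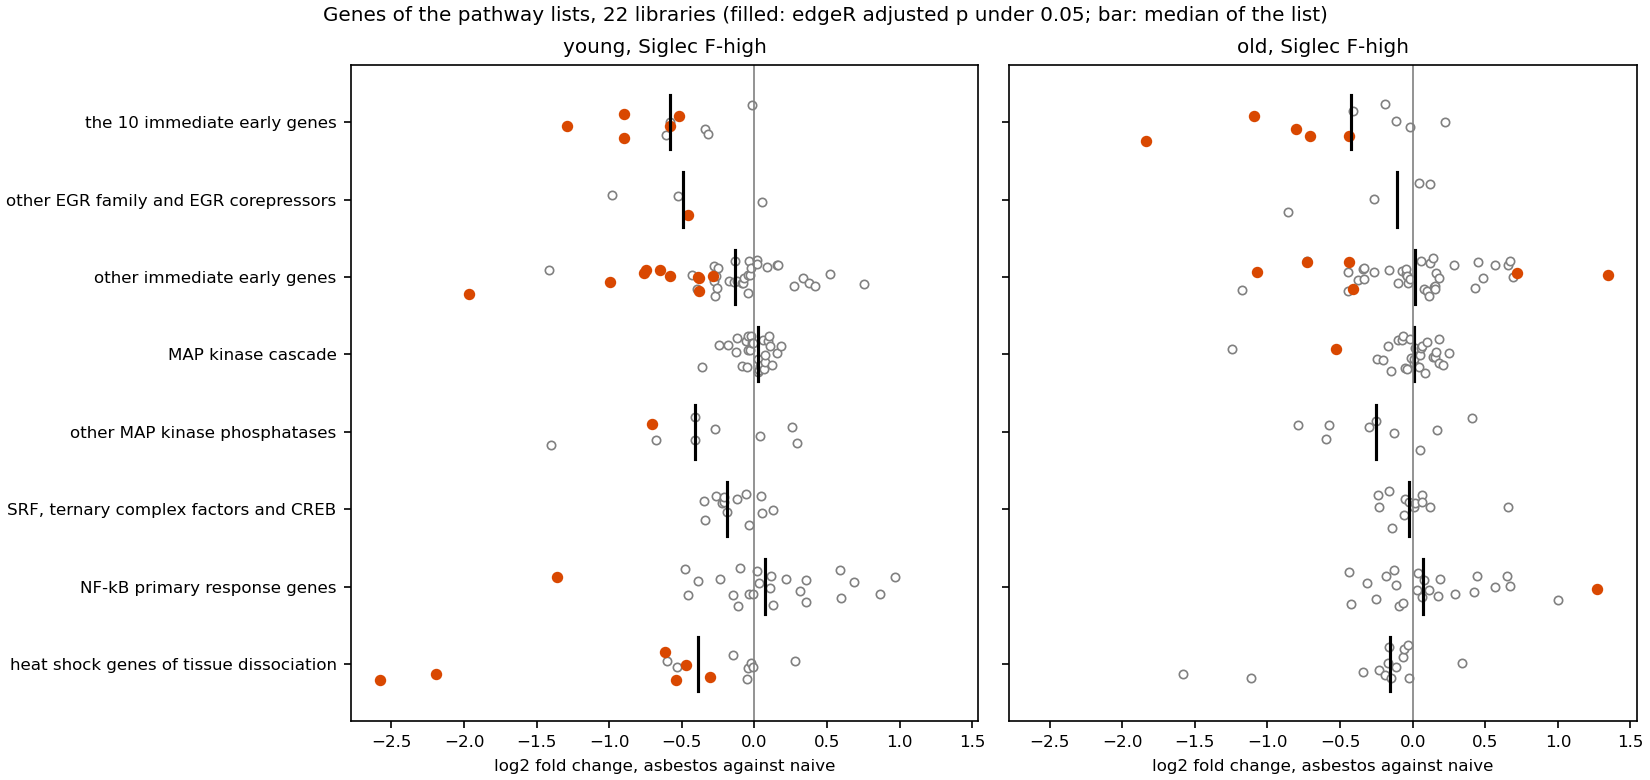
Log2 fold change of asbestos against naive Siglec F-high macrophages (x axis) for genes of 7 pathway lists and the 10 members (y axis) in young and old mice with 22 libraries, with filled points at an edgeR adjusted p under 0.05 and the list median as a bar. The 10 members have medians of -0.58 and -0.42, and the medians of the MAP kinase cascade list lie at 0.03 and 0.01.

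Genes known to rise when tissue is dissociated were read beside the members. Of 14 tested heat shock genes, 3 fell in young Siglec F-high macrophages after asbestos with 24 libraries and 6 with 22, where 0.475% and 1.58% of all genes fell. In old mice edgeR called 0 with either, with 2 at an unadjusted p under 0.05, 0 calls by limma voom and 1 by DESeq2 with 24 libraries. Of all genes, 0.0668% fell in old mice with 24 libraries and 0.969% with 22. Hspa1b and Hspa1a, inducible chaperones, were at -2.80 (adjusted p = 0.000629) and -2.05 (adjusted p = 0.00353) in young mice. The same chaperones were lower in old than in young naive libraries, Hspa1b at -2.30 (adjusted p = 0.00197) and Hspa1a at -1.73 (adjusted p = 0.00879). Calls of heat shock genes after asbestos in young mice and none in old mice do not show that the ages differ. In the interaction of age with asbestos edgeR called 0 of the 14 heat shock genes, with 2 at an unadjusted p under 0.05 and 0 calls by limma voom or DESeq2. It called 0% of all genes there, so this count could not set the list apart. The part of cell isolation in the members' result was not tested.

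Markers of other cells moved in the same comparisons. The summed level of 8 B cell markers was 219.99 to 250.02 CPM in young naive and 84.4 to 204 CPM in young asbestos Siglec F-high libraries, and 288 to 438 CPM against 198 to 271 CPM in old mice. With 22 libraries the young asbestos Siglec F-high range was 191 to 204 CPM. In Siglec F-low libraries the sums were 210 to 236 CPM in young and 226 to 327 CPM in old mice, which overlapped the naive ranges. Of the 8 B cell markers, 3 fell in young mice with 24 libraries (0.475% of all genes) and 5 with 22 (1.58%). In old mice edgeR called 0 with 24 libraries, with 7 at an unadjusted p under 0.05, 4 calls by limma voom and 3 by DESeq2, and 4 fell with 22 (0.969% of all genes). The list medians were -1.13 in young and -1.19 in old mice with 24 libraries. None was at 0, and Cd22 was the highest in all groups but old naive. Cd22 made up most of the young sums and did not fall there, with a mean of 156 CPM in naive libraries. With 22 libraries its mean was 165 CPM in young asbestos Siglec F-high libraries. Of 14 markers of monocyte-derived macrophages, 5 rose and 1 fell in young and 2 rose in old Siglec F-high macrophages with 24 libraries, and 11 rose in Siglec F-low macrophages of each age against naive. Of all genes, 1.43% rose and 0.475% fell in young and 0.713% rose in old Siglec F-high macrophages with 24 libraries. In Siglec F-low macrophages 7.94% of all genes rose in young and 6.63% in old mice with 24 libraries. The summed level of the 14 markers was 807 to 1492 CPM in naive, 1343 to 2710 CPM in asbestos Siglec F-high (1589 to 2710 CPM with 22 libraries) and 5801 to 8255 CPM in Siglec F-low libraries. Between Siglec F-low and Siglec F-high libraries of the same age, 11 of the 14 markers were higher at each age. With 24 libraries 3.41% of all genes were called higher there in young and 2.64% in old mice. The log2 differences of Jun, Egr1 and Rhob lay between -0.47 and 0.19 and were not called (adjusted p-values from 0.413 to 0.994 with 24 libraries). A missing call does not show that the sorts are equal. Of 6 neutrophil markers tested, Mmp8 and S100a8 rose and Csf3r fell in young Siglec F-high macrophages after asbestos with 24 libraries, and 1 rose and 1 fell with 22 (over all genes 3.48% rose and 1.58% fell). In old mice edgeR called 0 of the 6 with 24 libraries, with 2 at an unadjusted p under 0.05, 1 call by limma voom and 0 by DESeq2. In Siglec F-low macrophages against naive 3 rose (Mmp8, S100a8 and Cxcr2) and Csf3r fell in young mice, and 2 rose (Mmp8 and Retnlg) and Csf3r fell in old mice. The 8 markers of the list summed to 57.4 to 91.9 CPM in naive, 46.6 to 113 CPM in asbestos Siglec F-high (70.0 to 88.8 CPM with 22 libraries) and 83.5 to 108 CPM in Siglec F-low libraries. The part of these cell types in the members' result was not tested.

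The pattern of the 10 genes was last compared with all other genes, by the correlation of each gene with the members' mean standardised log2 CPM over the 22 libraries. Across libraries that share depth and group, the genes most like it were Trib1 (r = 0.905), Klf6 (0.898), Klf2 (0.893), Gm38158 (0.867), Klc1 (0.857), Zbtb20 (0.848), Itpk1 (0.847), Vgll4 (0.847), Ksr1 (0.846) and Trim47 (0.843). Over all 24 libraries the coefficient of Zbtb20 was 0.235 and the other 9 lay between 0.632 and 0.791. Among the members themselves, each of which is part of the mean, Jun had the highest coefficient with it (0.914) and Junb the lowest (0.0948).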

How the data were processed

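Poly(A)-selected RNA-seq libraries were made from 30 ng of RNA of sorted macrophages, per the labels' protocols. The deposited table holds whole-number counts per Ensembl gene, not normalized. The submitters' processing notes name bcl2fastq 2.19.1, FastQC, Trimmomatic 0.36, STAR 2.6.0, HTSeq 0.11.2 and mm10. Annotation release, strand setting and tissue dissociation are not given in the sources used here, so reads of overlapping genes cannot be told apart. Of 43430 identifiers 42462 had a symbol, and 0 columns of sample values were left unused.

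Genes with enough counts (filterByExpr, minimum count 10, minimum total 15) were tested with edgeR 4.0.16 (quasi-likelihood, TMM, 1 term per group, 24 libraries in 1 fit, R 4.3.3), with Benjamini-Hochberg adjustment over all genes tested and calls at an adjusted p under 0.05. The script was tested on simulated data. The 9 comparisons of 2 groups and 2 interactions were refitted without the 2 outlying libraries, with other size factors, DESeq2 1.42.0, limma 3.58.1 voom, no filter, fewer samples, a replicate block and without each library.

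The members and lists were chosen with earlier results of these data known, and 2 of the lists are not reported here. Besides the 10 members, the text names at most 3 called genes of smallest p per list and comparison and the 10 genes most correlated with the members. T cell, dendritic cell, epithelial and endothelial markers summed to 161 to 389, 18.2 to 44.0, 166 to 385 and 68.7 to 323 CPM per library, the 2 outlying ones included. Over the 22 libraries, endothelial sums were 111 to 144 CPM in naive, 149 to 210 in asbestos Siglec F-high and 191 to 323 in Siglec F-low libraries. In the same order, T cell sums were 313 to 389, 302 to 365 and 257 to 295 CPM. Those of dendritic cells were 26.8 to 44.0, 22.8 to 30.3 and 19.6 to 29.5 CPM, and epithelial ones 173 to 385, 202 to 355 and 166 to 328 CPM. Counts of all replicate pairs differed by more than sampling noise, so no library was taken as a duplicate. The pairs were not equally far apart. Chi-square per degree of freedom was 3.54 for young naive replicates 3 and 4, against 16.6 to 33.8 for the other pairs there. It was 4.64 for young asbestos Siglec F-low replicates 3 and 4, against 8.99 to 19.6 for the others. What such closeness stands for was not tested.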

Additional observations from a re-analysis of the deposited data

Results flagged for a closer look

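In 60 groups of 4 values (10 genes in 6 groups), Dixon's test at the 95% level marked 7 values as far from the others of their group, where chance alone gives about 1 in 20. The 7 values lie in 5 libraries, and 4 of them in the 2 outlying ones. Young asbestos Siglec F-high replicate 3 had Jund at 732 CPM, against 296 to 328 CPM in the others, and Ier2 at 421 CPM, against 156 to 196 CPM. Old asbestos Siglec F-high replicate 3 had Junb at 804 CPM, against 1235 to 1307 CPM, and Ier2 at 116 CPM, against 153 to 157 CPM.

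Egr1 stood at 517 CPM in old naive Siglec F-high replicate 4, against 163 to 218 CPM in the other naive libraries of old mice. In young asbestos Siglec F-low libraries, Ier2 was at 164 CPM in replicate 2, against 125 to 128 CPM, and Dusp1 at 560.3 CPM in replicate 1, against 855 to 892 CPM.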

How the results depend on the processing

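Jun, Egr1 and Rhob were lower in all 4 asbestos groups under every alternative run, and what varied was the side of the threshold. The members called were 3 in young and 3 in old Siglec F-high macrophages after asbestos. Without the 2 outlying libraries these became 5 and 5, with limma voom 7 and 5, with DESeq2 5 and 3, and with only the groups compared 0 and 2. For Siglec F-low against naive in young mice, 5 became 9 without the 2 libraries, 8 with voom and 9 with only the groups compared. For Siglec F-low against Siglec F-high in young mice, 1 became 0 without the 2 libraries, without a filter and with only the groups compared. Between ages, 0 became 1 in naive libraries with voom, 1 in asbestos Siglec F-high libraries with voom and 1 with DESeq2, and 1 in Siglec F-low libraries without the 2 libraries, with voom and with only the groups compared. The cause was not tested. Except for the main fit and the fit without the 2 outlying libraries, the share of all genes called is not given here. Counts of members from the other fits, those below included, therefore cannot be read as stronger or weaker than the main ones.

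Leaving out 1 library at a time gave 2 to 5 called members in young and 1 to 5 in old Siglec F-high macrophages after asbestos, 4 to 8 in young Siglec F-low against naive, 0 to 1 between the sorts in young mice and 0 to 2 between ages in asbestos Siglec F-high libraries. The 5 in each Siglec F-high comparison and the 8 came when replicate 3 of the young asbestos Siglec F-high group was left out, and the 1 in old mice when replicate 4 of the old asbestos Siglec F-high group was.

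Small fold changes changed sign. Without the 2 libraries Junb in young Siglec F-high macrophages after asbestos became -0.015 and Fosb in old ones -0.021. Over the fits that left out 1 library, Junb ranged from -0.011 to 0.33, Jund from -0.52 to 0.031 and Ier2 from -0.57 to 0.017 in young mice. Each of these 3 lowest values came without replicate 3 of the young asbestos Siglec F-high group. In old mice Fosb ranged from -0.042 to 0.25 and Atf3 from -0.33 to 0.076, and in Siglec F-low macrophages against old naive Atf3 ranged from -0.36 to 0.047, with both highest values of Atf3 without old naive replicate 1. None of the values of the other sign was called. Of 2176 fits of the 68 remaining pairs of gene and comparison, 103 had the other sign, 0 of them called.

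The labels share replicate numbers across groups. Same-numbered libraries were taken to deviate together where r was over 0.1 in every pair. With 24 libraries this held for none of the 9 comparisons, although all 4 pairs were positive between the sorts of old asbestos mice (r from 0.0733 to 0.186) and in young Siglec F-low against naive (0.0663 to 0.163). With 22 it held between the sorts of old asbestos mice (0.150 to 0.205) and not in young ones (0.0854 to 0.319), so the numbers were not taken to pair the libraries. With the replicate block the count of called members became 0 between the sorts in young mice and stayed at its value elsewhere. With the replicate block and without the 2 libraries it was 8 in young and 5 in old Siglec F-high after asbestos, 9 in young Siglec F-low against naive and 1 between ages in Siglec F-low, and 1 between the sorts in young mice, Ier2 at -0.34 (adjusted p = 0.0259), where 22 libraries without the block called 0, with Junb at -0.027 in young and Fosb at -0.023 in old Siglec F-high macrophages after asbestos.

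Over all genes, calls rose without the 2 libraries from 256 to 690 and from 105 to 562 after asbestos in young and old Siglec F-high macrophages, from 1666 to 4729 and from 1418 to 4181 in Siglec F-low against naive, from 672 to 1638 and from 579 to 1578 between the sorts, and from 273 to 1094, 641 to 997 and 174 to 983 between ages. Depth bounds the members little: the lowest count of any in 1 library was 142, for Ier2 in old asbestos Siglec F-high replicate 3.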
